A study of Mus musculus with 3 samples.

Results

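The transcription factor Nrf2, its inhibitor and 8 of the enzymes and transporters it is best known for were followed in B16F10, a mouse melanoma line that makes pigment, with and without knockdown of Med23, a subunit of the Mediator complex that links transcription factors to RNA polymerase II. The genes were taken by symbol from the deposited expression table: Nfe2l2, which encodes Nrf2, Keap1, Slc7a11, Gclc, Gclm, Gsr, Txnrd1, Srxn1, Hmox1 and Nqo1. All 10 were present, among 12852 genes in the table. The samples were 1 library titled siCtrl with the genotype wild type, and 2 libraries with the genotypes Med23 knockdown-1 and Med23 knockdown-2, all from total RNA of the same line. The column names siMed23A and siMed23B do not show whether the siRNAs differed. The labels used here give no siRNA dose and no time after transfection. Values were RPKM, reads scaled to transcript length and library size, to which the authors had given the same distribution in each of the 3 libraries. The knockdown libraries are called the first and the second by their place in the table.

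Nrf2 is a basic leucine zipper factor that is made continuously and held low by Keap1, an adaptor that presents it to a Cul3 ubiquitin ligase. Oxidants and electrophiles modify Keap1, and Nrf2 then accumulates, pairs with a small Maf protein and binds antioxidant response elements near genes for glutathione synthesis, thioredoxin reduction, heme breakdown and quinone detoxification. Nrf2 activity is therefore set largely at the protein level, which an RNA measurement does not show. In melanocytes these enzymes meet the hydrogen peroxide and quinones that arise during melanin synthesis.

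Med23 itself stood at 5.23 RPKM in the control and at 1.65 and 1.61 RPKM with knockdown, log2 ratio -1.24 (SE 0.11, limma with Benjamini-Hochberg adjusted p = 0.00121). Med23 did not pass with the SD of the lone control set at 3 times that of a knockdown library (limma adjusted p = 0.108). Log2 ratios are knockdown over control on log2(RPKM + 1), a scale that understates the change where values are low. The test covered 9722 genes, those whose mean over the 3 libraries reached 1 RPKM. The control had no replicate, so the test takes it to vary like the knockdown libraries, and read depth was unknown. No label ties the knockdown libraries to separate cultures, so their spread may be technical. All 12 melanocyte markers searched were in the table, and their summed level measured 7152 RPKM in the control, against 3057 and 2946 RPKM after knockdown, with Tyr, the key enzyme of melanin synthesis, among the 11 that fell. Tyr, Slc45a2, Pmel and Oca2 had log2 ratios of -2.95, -2.27, -1.59 and -1.60. Of 21 markers of other cell types 5 were listed, with a summed level of 17.9 RPKM in the control and 11.9 and 12.2 RPKM after knockdown. Most of that sum was Cd68, which fell from 16.9 to 10.0 RPKM, while Lyz2, above the filter only by its knockdown values, rose from 0.646 to 1.19 RPKM and did not pass after correction for length and GC content (limma adjusted p = 0.226). The part of these marker changes in the results on the Nrf2 genes was not tested. Fewer expressing cells and less RNA per cell cannot be told apart in such libraries.

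Promoter windows of the Nrf2 genes were read for the sequences that Nrf2 with a small Maf protein, or the related AP-1 factors, are known to bind. RefSeq windows on GRCm38.p6, from 250 bases before to 50 after a transcription start, matched 7 of the 10 genes, with 3 starts for Txnrd1 and 9 windows in all. Gclc, Gsr and Hmox1 were not matched. The antioxidant response element core was searched on both strands as TGACNNNGC and as TGAGNNNGC, and the AP-1 site as TGANTCA, which can overlap either core. TGACNNNGC was in 4 of the 9 windows and in 12.4% of all 32851 windows, TGAGNNNGC in 2 and 17.6%, and TGANTCA in 1 and 7.81%. Either core was present in 5 of the 9 windows, against 27.8% of all windows. These were windows of Nfe2l2, Srxn1, Slc7a11, Gclm and a single start of Txnrd1. The windows of the other Txnrd1 starts held no match. The stretches upstream of the start that hold matches are shown 5′ to 3′ on the gene's strand, with the matched letters in capitals. Some matches lie on the opposite strand and read as their reverse complement.
Nfe2l2, chr2:75704870-75704913, minus strand: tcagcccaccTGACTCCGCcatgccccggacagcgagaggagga
Gclm, chr3:122245398-122245456, plus strand: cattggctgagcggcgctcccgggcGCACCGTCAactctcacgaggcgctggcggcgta
Txnrd1, chr10:82859089-82859147, plus strand: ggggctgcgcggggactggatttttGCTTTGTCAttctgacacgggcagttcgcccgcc
Slc7a11, chr3:50443677-50443735, minus strand: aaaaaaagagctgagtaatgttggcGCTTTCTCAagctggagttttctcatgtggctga
Srxn1, chr2:152105341-152105512, plus strand: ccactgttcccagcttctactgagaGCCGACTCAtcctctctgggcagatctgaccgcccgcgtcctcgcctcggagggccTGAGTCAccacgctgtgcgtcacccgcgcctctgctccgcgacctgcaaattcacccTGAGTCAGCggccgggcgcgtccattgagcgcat

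The matches began 240 bases before the start in Nfe2l2, 134 in Gclm, 92 in Txnrd1 and 97 in Slc7a11. Srxn1 held the most: TGAGNNNGC at 158 bases before the start, TGANTCA at 102, and a TGANTCA that overlaps a TGAGNNNGC at 45. A further TGACNNNGC in Srxn1 began 29 bases after the start. A match is a run of letters, not a measured binding site.

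After Med23 knockdown all 10 genes were lower than the control in both knockdown libraries, as were 44.2% of all tested genes. By limma's adjusted p under 0.05, 10 of 10 fell and 0 rose (0 also at an unadjusted p under 0.05), where 24% of all tested genes fell and 26.3% rose. The median log2 ratio of the 10 was -1.08, against 0.01 over all tested genes. At least 1.5-fold lower in both libraries were 8 of the 10, against 13.5% of tested genes, and at least 2-fold lower were 6, against 4.76%. All of these counts include Slc7a11, which passed the filter only through the control, where it was high. Gclm, at 8.49 RPKM in the control against 4.27 RPKM in the higher knockdown library, lay just outside the 2-fold limit. The larger falls were those of Gsr, Srxn1, Hmox1 and Txnrd1, and the smaller ones those of Nfe2l2, Nqo1 and Keap1. The 10 genes were chosen with earlier results of these data known. The shares and the median above therefore describe them and are no independent test.

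**Figure D1:**
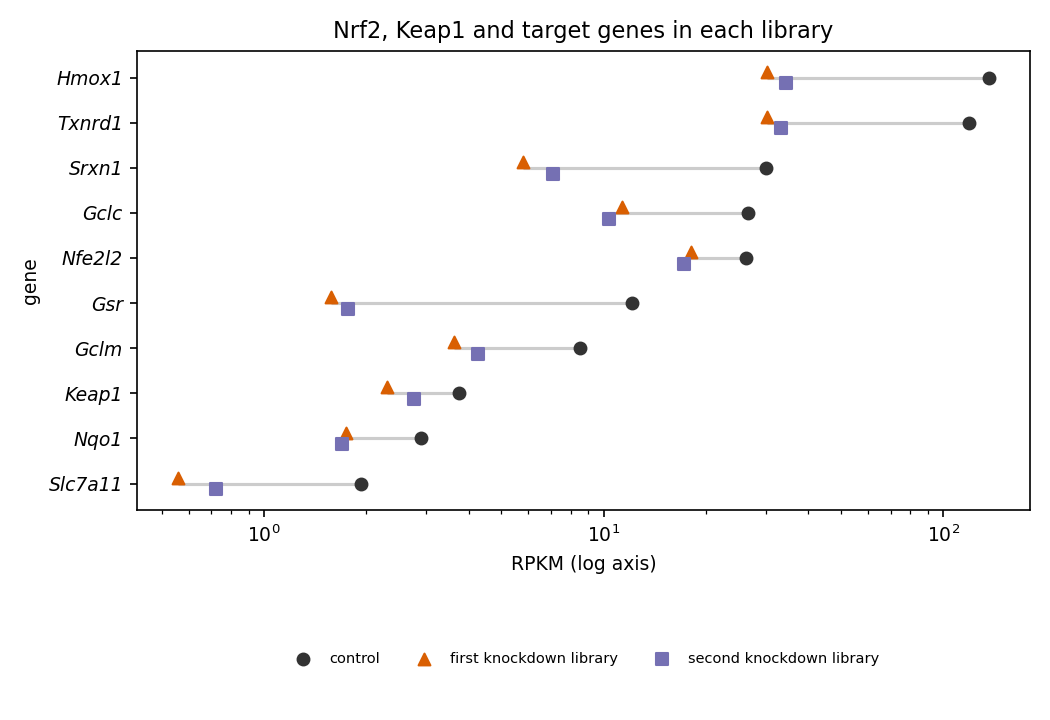
RPKM of the 10 genes on a log axis, with 1 point per library (circle control, triangle first and square second knockdown library), ordered by the control level from Hmox1 at 137 RPKM to Slc7a11 at 1.92 RPKM. In every gene the control point lies to the right of both knockdown points.

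Nfe2l2 (ENSMUSG00000015839) measured 26.2 RPKM in the control, against 18.1 and 17.2 RPKM with knockdown, a mean of 17.6 ± 0.620 (SD, n = 2). The knockdown level was thus 1.49-fold lower, the log2 ratio being -0.55 (SE 0.09, limma adjusted p = 0.00532). With the control SD set at 2 times that of a knockdown library, Nfe2l2 did not pass (limma adjusted p = 0.0626). Keap1 (ENSMUSG00000003308), the inhibitor, measured 3.74 RPKM in the control, against 2.30 and 2.77 RPKM after knockdown. Its fall was 1.47-fold, log2 ratio -0.43 (SE 0.13, limma adjusted p = 0.0427), close to the threshold. Without the filter on low values Keap1 had an adjusted p = 0.0755. The ratio of Nfe2l2 to Keap1 RPKM, 7.01 in the control, was 7.84 and 6.21 in the knockdown libraries. An antisense transcript, Gm16754, overlaps Keap1 exons, and since no source used here gives a strand setting its reads may be counted with Keap1.

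Glutathione is built from cystine, which enters by the exchanger xCT, and Slc7a11 (ENSMUSG00000027737) encodes its transport subunit. It had the lowest level of the 10 in the control, 1.92 RPKM, and was 0.558 and 0.719 RPKM after knockdown, a mean of 0.639 ± 0.114 (SD, n = 2). Its RPKM was 3.01-fold lower, the log2 ratio being -0.84 (SE 0.13, limma adjusted p = 0.00475). Both knockdown values were under 1 RPKM, so Slc7a11 passed the filter only through the control, where it was high. Corrected for transcript length and GC content its log2 ratio was -0.34 and no longer passed (limma adjusted p = 0.136). Slc3a2, the heavy chain that carries xCT and other exchangers to the membrane, did not follow: it rose from 52.5 to 68.8 ± 0.106 RPKM (SD, n = 2).

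Glutamate-cysteine ligase, the rate-limiting enzyme of glutathione synthesis, has a catalytic and a modifier subunit, and both fell. The catalytic subunit Gclc (ENSMUSG00000032350) measured 26.6 RPKM in the control, against 11.3 and 10.4 RPKM after knockdown, 2.45-fold lower (log2 ratio -1.22, SE 0.10, limma adjusted p = 0.000864). The modifier Gclm (ENSMUSG00000028124) measured 8.49 RPKM in the control, against 3.63 and 4.27 RPKM after knockdown, 2.15-fold lower (log2 ratio -0.94, SE 0.13, limma adjusted p = 0.00348). The control lay well above both knockdown libraries in each gene. Per length, Gclc RPKM was 3.14 times that of Gclm in the control and 3.12 and 2.43 times in the first and second knockdown library. Exons of Gclm overlap the pseudogene Gm6061 and the opposite-strand transcript Gm17494 in the GENCODE annotation, so its value may hold reads of these. Gss, which completes glutathione in the next step, measured 5.72 RPKM in the control, against 6.55 ± 0.0867 RPKM after knockdown and was not called by limma (adjusted p = 0.221).

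Gsr (ENSMUSG00000031584), the reductase that returns oxidized glutathione to its reduced form with NADPH, fell the most of the 10. It measured 12.1 RPKM in the control, against 1.57 and 1.77 RPKM with knockdown, a mean of 1.67 ± 0.139 (SD, n = 2). This was 7.25-fold lower, the log2 ratio being -2.30 (SE 0.12, limma adjusted p = 0.000277). In order of log2 ratio from the lowest, Gsr stood at place 12 of the 9722 tested genes. Among the 10 genes by RPKM it held place 6 in the control and place 9 by the mean of the knockdown libraries, although it lay above Nqo1 in the second of them.

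Txnrd1 (ENSMUSG00000020250), the cytosolic selenoenzyme that reduces thioredoxin, was among the most abundant of the 10. It measured 119 RPKM in the control, against 30.3 and 33.3 RPKM after knockdown, a 3.76-fold fall (log2 ratio -1.88, SE 0.08, limma adjusted p = 0.000226). Srxn1 (ENSMUSG00000032802), sulfiredoxin, repairs peroxiredoxins that peroxide has overoxidized. Srxn1 measured 30.1 RPKM in the control, against 5.77 and 7.11 RPKM with knockdown, 4.67-fold lower (log2 ratio -2.07, SE 0.13, limma adjusted p = 0.000529). The knockdown libraries lay close together beside their distance from the control in both genes. By log2 ratio Srxn1 stood at place 23 and Txnrd1 at place 33 from the lowest of all tested genes.

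Hmox1 (ENSMUSG00000005413), which opens the heme ring to release iron, carbon monoxide and biliverdin, had the highest level of the 10 in the control and in the second knockdown library, and was level with Txnrd1 in the first. It measured 137 RPKM in the control, against 30.2 and 34.4 RPKM after knockdown, a mean of 32.3 ± 2.95 (SD, n = 2). The fall was 4.22-fold, the log2 ratio being -2.05 (SE 0.09, limma adjusted p = 0.000239), at place 24 from the lowest. Nqo1 (ENSMUSG00000003849), which reduces quinones by transfer of a pair of electrons, was low in these cells. Its value measured 2.91 RPKM in the control, against 1.74 and 1.69 RPKM after knockdown, a 1.69-fold fall (log2 ratio -0.52, SE 0.11, limma adjusted p = 0.0140). Nqo1 stood at place 1457 from the lowest log2 ratio, Nfe2l2 at 1345 and Keap1 at 1897. Gclc, Gclm and Slc7a11 stood at places 180, 407 and 566.

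**Figure D2:**
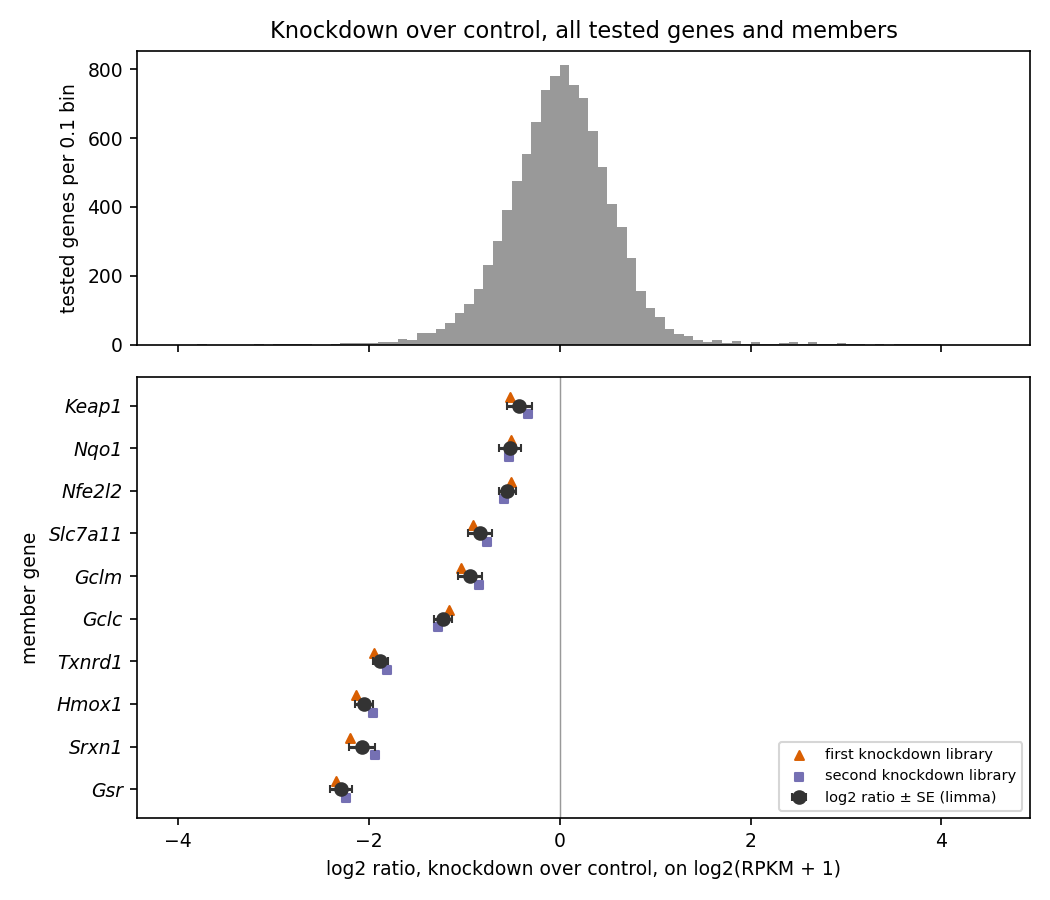
Top, number of tested genes by log2 ratio of knockdown over control in bins of 0.1; bottom, log2 ratio ± SE from limma for each of the 10 genes (circle) with the ratio of each knockdown library (triangle first, square second). The 10 genes run from Keap1 at -0.43 to Gsr at -2.30, while the distribution of all tested genes is centred near 0.01.

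Between the knockdown libraries the 10 genes differed by at most 1.29-fold, and the second library was the higher one for 7 of them. The smallest distance between the control and the higher knockdown library was 1.35-fold, in Keap1. Summed over the 10 genes, the level measured 368 RPKM in the control, against 105 and 114 RPKM with knockdown, most of it from Hmox1 and Txnrd1. These tests depend on how much the lone control is assumed to vary. With its SD set at 3 times the SD of a knockdown library, 3 of the 10 genes still fell by limma, Gsr (adjusted p = 0.0336), Hmox1 (0.0294) and Txnrd1 (0.0284), where 0.792% of all tested genes fell. Srxn1 and Gclc then had limma adjusted p = 0.0580 and 0.0843, and the other 5 lay between 0.201 and 0.519.

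Relatives of the 10 genes, and Txn1, which Txnrd1 reduces, were read as well. They were chosen after their values were seen, and of them only Txnrd3 was called by limma. Hmox2, the constitutive heme oxygenase, measured 16.8 RPKM in the control, against 16.9 and 17.5 RPKM after knockdown (log2 ratio 0.03, SE 0.09, limma adjusted p = 0.781). Hmox1 RPKM was 8.14 times that of Hmox2 in the control and 1.79 and 1.97 times after knockdown. Txnrd2, the mitochondrial thioredoxin reductase, measured 5.54 RPKM in the control, against 6.46 and 7.63 RPKM after knockdown (limma adjusted p = 0.108). Txnrd3, a related reductase with a glutaredoxin domain, fell from 10.1 to 6.11 ± 0.693 RPKM (SD, n = 2). Its log2 ratio was -0.65 (SE 0.12, limma adjusted p = 0.01005), a larger fall than those of Nfe2l2 and Nqo1. Txn1, the cytosolic thioredoxin that Txnrd1 reduces, measured 208 RPKM in the control, against 201 and 192 RPKM after knockdown (log2 ratio -0.08, limma adjusted p = 0.249), so its RPKM went from 1.74 times that of Txnrd1 to 6.64 and 5.77 times. Nqo2 measured 4.60 RPKM in the control, against 3.90 ± 0.373 RPKM after knockdown (limma adjusted p = 0.231). Nfe2l1, the Nrf1 factor of the same family as Nrf2, measured 140 RPKM in the control, against 125 and 138 RPKM after knockdown (limma adjusted p = 0.326). None of the differences between a gene and its relative was itself tested.

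Of 21 genes that control Nrf2 or its binding to DNA, the 2 described above among them, 17 were tested and 4 lay under the filter. Of the 17, 5 fell, 5 rose and 7 were not called by limma, with a median log2 ratio of -0.09 against 0.01 over all tested genes. Both shares lie near those of all tested genes, of which 24% fell and 26.3% rose. On the side of Keap1, the scaffold Cul3 fell from 17.5 to 11.0 ± 0.532 RPKM, and Rbx1, the RING subunit of the same ligase, rose from 31.4 to 40.8 ± 0.540 RPKM (SD, n = 2). Sqstm1, the autophagy receptor p62, which binds Keap1 and is itself an Nrf2 target, fell from 429 RPKM to 257 and 282 RPKM. Dpp3, a peptidase that competes for Keap1, fell from 10.8 to 5.11 ± 0.307 RPKM. Pgam5, a mitochondrial phosphatase bound by Keap1, rose from 8.40 to 14.8 ± 0.119 RPKM.

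On the side of the response element, Bach1, a repressor that occupies the same elements with small Maf proteins and is released by heme, rose. It measured 6.02 RPKM in the control, against 9.98 and 9.86 RPKM after knockdown, the log2 ratio being 0.64 (SE 0.10, limma adjusted p = 0.00506). Per length, Bach1 RPKM was 0.229 of Nfe2l2 RPKM in the control and 0.552 and 0.573 of it in the knockdown libraries. Of the small Maf genes, Maff rose from 4.43 to 6.97 ± 0.272 RPKM and Mafk from 5.35 to 7.90 ± 1.16 RPKM, while Mafg measured 10.3 RPKM in the control, against 6.71 and 8.33 RPKM after knockdown (limma adjusted p = 0.0574). Mafk did not pass without the filter on low values (limma adjusted p = 0.0642). With the 3 times larger control SD, Ephx1, described below, was the single gene of the 7 antioxidant lists outside the 10 that still passed limma's threshold.

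**Figure D3:**
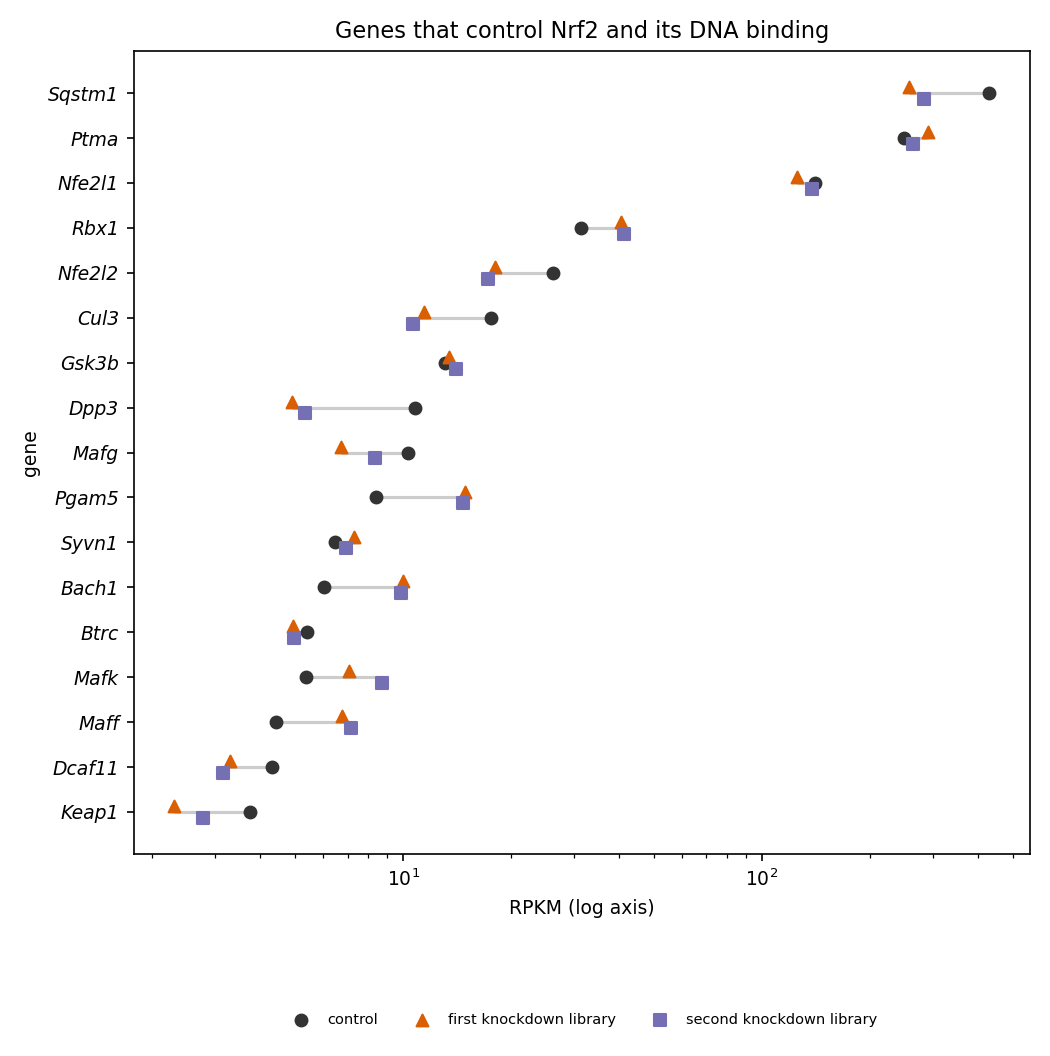
RPKM of the 17 tested genes that control Nrf2 or its DNA binding, on a log axis, with 1 point per library (circle control, triangle first and square second knockdown library). Nfe2l2, Keap1, Cul3, Sqstm1 and Dpp3 have the control to the right of both knockdown points, and Bach1, Maff, Mafk, Rbx1 and Pgam5 have it to the left.

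The list of glutathione metabolism held 24 genes, of which 20 were in the table and 18 tested. Of the 14 tested that are not among the 10, 2 fell, 6 rose and 6 were not called by limma, with a median log2 ratio of 0.21, where 24% of all tested genes fell and 26.3% rose. Chac2, which cleaves glutathione, fell from 2.46 to 0.972 ± 0.0954 RPKM, and Ggt1, which breaks it down outside the cell, from 3.02 to 1.52 ± 0.103 RPKM. Chac2 passed the filter only through the control, where it was high. The glutaredoxins Glrx2 and Glrx3 rose, Glrx2 from 2.63 to 4.85 ± 0.285 RPKM and Glrx3 from 16.6 to 27.8 ± 1.83 RPKM. Gpx4, the peroxidase that protects membrane lipids, measured 14.1 RPKM in the control, against 17.45 and 16.64 RPKM after knockdown and did not pass (limma adjusted p = 0.0622).

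In the list of 22 thioredoxin and peroxiredoxin genes 21 were tested. Of the 19 that are not among the 10, 6 fell, 6 rose and 7 were not called, with a median log2 ratio of 0.19. These shares are near the 24% and 26.3% of all tested genes, and Msra, among the rises, reached the filter only by its knockdown values. Prdx1, the abundant cytosolic peroxiredoxin that Srxn1 repairs, fell from 149 RPKM to 75.9 and 72.0 RPKM, log2 ratio -1.003 (SE 0.06, limma adjusted p = 0.000481). Srxn1 fell by the larger factor, so Prdx1 RPKM was 4.96 times that of Srxn1 in the control and 13.2 and 10.1 times after knockdown. The sestrins Sesn1 and Sesn2, stress proteins that bear on peroxide and nutrient signalling, fell, Sesn1 from 7.47 to 3.76 ± 0.0261 RPKM and Sesn2 from 6.32 to 2.81 ± 0.0476 RPKM. Sepx1, the methionine sulfoxide reductase now named Msrb1, rose from 15.7 to 29.7 ± 1.47 RPKM. Among the other peroxiredoxins Prdx4 rose by a log2 ratio of 0.73, and Prdx2, Prdx3, Prdx5 and Prdx6, with ratios between -0.15 and 0.21, did not pass.

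Genes for the removal of superoxide and hydrogen peroxide, both enzymes and helper proteins, gave 1 fall, 2 rises and 4 not called, of 7 tested. Their median log2 ratio was 0.05, and among all tested genes 24% fell and 26.3% rose. Sod3, the extracellular superoxide dismutase, rose from 2.05 to 6.96 ± 0.127 RPKM, and Sod1, the cytosolic one, from 200 RPKM to 281 and 252 RPKM. Ccs, the copper chaperone of Sod1, fell from 9.26 to 7.27 ± 0.263 RPKM, with an adjusted p = 0.0499 by limma at the edge of the threshold and 0.0707 without the filter on low values. Catalase, Cat, measured 20.6 RPKM in the control, against 20.2 ± 1.05 RPKM after knockdown (limma adjusted p = 0.817).

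In the list of heme and iron genes 18 of 19 were tested. Of the 17 other than Hmox1, 7 fell, 1 rose and 9 were not called, with a median log2 ratio of -0.23, where 24% of all tested genes fell and 26.3% rose. The difference between these shares was not tested. Slc11a2, an iron importer, fell from 27.4 to 16.9 ± 0.906 RPKM, and Pcbp1, an iron chaperone, from 436 to 318 ± 8.63 RPKM. Slc40a1, the iron exporter ferroportin and a known Nrf2 target, measured 2.13 RPKM in the control, against 1.31 and 0.786 RPKM after knockdown, with an adjusted p = 0.0341 by limma and 0.0540 without the filter on low values. Pcbp2 rose from 273 to 399 ± 20.5 RPKM. The ferritin chains Fth1 and Ftl1 fell by log2 ratios of -0.42 and -0.15. These genes have many processed copies in the genome, so their values are uncertain, and the 2 knockdown values of Ftl1 were identical, as can happen where distributions are made equal.

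The list of NADPH supply numbered 20 genes, with 19 tested. NADPH is the electron source of Gsr and Txnrd1 and, beside NADH, of Nqo1. The list also holds pentose phosphate genes such as Tkt and Pgls, and the NAD kinases, whose enzymes make no NADPH themselves. Of the 19, 11 fell, 3 rose and 5 did not pass, with a median log2 ratio of -0.37. Among all tested genes 24% fell and 26.3% rose, and the difference was not tested. Pgd, of the pentose phosphate pathway, fell from 11.3 to 6.18 ± 0.531 RPKM, Me2, a mitochondrial malic enzyme that uses NAD as well as NADP, from 49.3 to 27.7 ± 5.02 RPKM, Idh2, the mitochondrial NADP-linked isocitrate dehydrogenase, from 85.7 to 55.9 ± 2.96 RPKM, and Aldh1l2, of mitochondrial folate metabolism, from 201 RPKM to 115 and 135 RPKM. The 3 that rose were Tkt and Pgls of the pentose phosphate pathway and Mthfd2 of mitochondrial folate metabolism, with log2 ratios of 0.35, 0.48 and 0.50. G6pdx and Me1, which are known Nrf2 targets, fell by log2 ratios of -0.49 each, while Tkt, another target, rose. The other genes of this list were not sorted by whether Nrf2 targets them. Of 27 genes for quinones, carbonyls and conjugates 19 were in the table, and all 19 were tested. Of the 18 other than Nqo1, 5 fell, 6 rose and 7 were not called, with a median of 0.06, shares near the 24% and 26.3% of all tested genes. Osgin1, an oxidative stress response gene, fell from 9.27 RPKM to 2.27 and 3.52 RPKM, Ephx1, an epoxide hydrolase, from 157 to 72.3 ± 2.78 RPKM, and Abcc4, a conjugate exporter, from 2.32 to 0.803 ± 0.0456 RPKM. Both knockdown values of Abcc4 were under 1 RPKM, so it passed the filter only through the control, where it was high. Akr1b8, an aldo-keto reductase, rose from 54.4 to 89.7 ± 2.89 RPKM, although it has close relatives with which reads may be shared. Akr1b3, Akr1b10, Akr1c13 and Cbr1 rose too, by log2 ratios of 0.52, 0.52, 0.69 and 0.62, and Akr1a1 by 0.16. The genes of this list were not sorted by whether Nrf2 targets them.

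**Figure D4:**
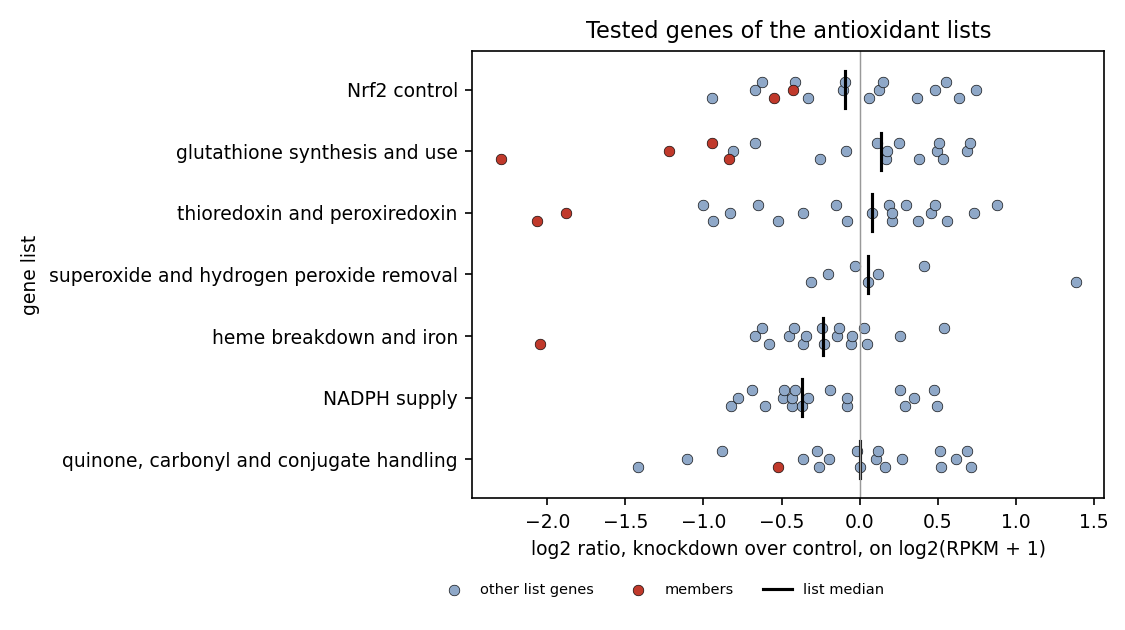
Log2 ratio of knockdown over control for each tested gene of the 7 antioxidant lists, 1 row per list, with the 10 Nrf2 genes in red and black bars at list medians. Gsr, Srxn1, Hmox1 and Txnrd1 lie at -1.88 or lower, below every other gene of these lists, and the list medians run from -0.37 to 0.14.

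By the pair of log2 ratios, the genes most like Nfe2l2 among 2266 tested genes within 2-fold of its control level were Skiv2l2, Supt16h and Alg10b, at Euclidean distances of 0.00217, 0.0125 and 0.0174. Skiv2l2, for example, measured 18.6 RPKM in the control, against 12.8 and 12.1 RPKM after knockdown. The likeness rests on 3 libraries.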

How the data were processed

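Total RNA of 3 samples, 1 control and 2 with Med23 knocked down, was sequenced, and the authors deposited RPKM values for 12852 genes. CASAVA 1.4, TopHat, Cufflinks and the build mm9 appear in the submitters' processing notes without a stated role; strand setting and annotation are not given in the sources used here. Sorted, the 3 columns were equal in 95.3% of positions (relative tolerance 1e-09), so the deposited RPKM had been quantile normalized; they cannot show a change in total RNA and hold no read depth. Both knockdown names share 1 header field, so each of these columns is known by its group only.

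Log2(RPKM + 1) of the 9722 genes whose mean reached 1 RPKM was fitted with limma 3.58.1 in R 4.3.3 (intensity trend, Benjamini-Hochberg adjustment over all tested genes, threshold 0.05). The fit had 1 residual and 4.37 prior degrees of freedom and was tested on simulated data. The simulation gave the control the same SD as the knockdown libraries, so it cannot judge the effect of the unreplicated control. Transcript length, GC content and exon overlaps came from GENCODE M21, with 98.1% of genes matched by ID. No coordinates of the files were used. The 10 genes and the lists were chosen with earlier results of these data known. List genes were named by rule: all changed controllers of Nrf2, and up to 4 changed genes of each other list by the smaller change of the 2 libraries. Outside this rule Slc3a2, Gss, Gpx4, Prdx2 to Prdx6, Cat, Fth1, Ftl1, G6pdx, Me1, Tkt, Pgls, Mthfd2, Mafg and the relatives of the 10 genes were named after their values were seen. The same holds for Txn1, Akr1a1, Akr1b3, Akr1b10, Akr1c13 and Cbr1. Alternatives were other pseudocounts, filters, scalings and variance models, a length and GC correction, and each knockdown library left out. Python 3.11.15, pandas 2.3.3 and matplotlib 3.10.9 were used.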

Additional observations from a re-analysis of the deposited data

How the results depend on the processing

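Of the 10 genes, all stayed lower than the control under every alternative in which they were tested. The count that fell by limma, 10, was also 10 with a pseudocount of 0.1, with either rescaling and without the intensity trend. It was 9 without a filter (Keap1 lost), 9 after the length and GC correction (Slc7a11 lost) and 7 of the 7 tested at a minimum of 5 RPKM. With a control SD of 2 times that of a knockdown library it was 6 (Nfe2l2, Keap1, Slc7a11 and Nqo1 lost), and with 3 times it was 3. In no setting did any rise (0 in each). The median log2 ratio of the genes, -1.08, was -1.38 with a pseudocount of 0.1, -0.95 after the length and GC correction and -1.88 at a minimum of 5 RPKM, where 3 low genes drop out. With either knockdown library left out it ran from -1.10 to -1.06, and 9 genes were at least 1.5-fold lower in each single library; no test was possible there. Over all tested genes, falls numbered 2332 and rises 2556. Falls were 1494 of 5979 at a minimum of 5 RPKM. Falls and rises were 683 and 810 with a control SD of 2 times, and 77 and 118 with 3 times. With 3 times, falls per list were 1 each for glutathione, thioredoxin, heme and iron, and quinone genes, 7 for melanocyte genes, and 0 for Nrf2 control, superoxide, NADPH and other cell type genes, and rises were 0 in every list; at an unadjusted p under 0.05 the last-named lists held 4, 0, 3 and 1 falls, and rises ran from 0 to 4 a list. No paired analysis was possible because the single control shares no replicate pair with the knockdown libraries and the columns carry no replicate number. Read depth could not be used to set limits.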
